A study of Mus musculus with 4 samples.

Results

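Prrx1, Prrx2, Twist1, Twist2, Osr1, Osr2, Tbx3, Tbx18 and Six2 encode transcription factors of craniofacial mesenchyme that lie outside the Msx, Dlx and Alx homeobox families. They were taken by gene symbol from the deposited expression tables, and all 9 were found among the 23107 genes listed. Expression was measured by RNA sequencing of tdTomato+ dental follicle cells, described in the labels as PTHrP+, which were sorted from mouse mandibular molars at postnatal day 8. The dental follicle is the mesenchyme around the developing tooth, and PTHrP is the peptide encoded by Pthlh. Ptch1 encodes the hedgehog receptor that restrains the pathway when no ligand is bound. The conditional heterozygotes (cHet, genotype Ptch1(+/-)) and the conditional knockouts (cKO, genotype Ptch1(-/-)) both received tamoxifen at postnatal day 3, and each group had 2 libraries, here called cHet_0, cHet_1, cKO_0 and cKO_1 after their table columns. No group without a Ptch1 mutation was analysed here, so every difference is between 2 mutant genotypes. The driver of the conditional deletion, and whether animals were pooled, are not given in the sources used here.

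These genes form small families that set the identity of mesenchyme in the face and limbs. Prrx1 and Prrx2 are paired-related homeodomain proteins with overlapping roles in the mandible. Twist1 and Twist2 are basic helix-loop-helix (bHLH) proteins that bind E-box sequences and hold back osteoblast differentiation, and loss of 1 copy of Twist1 disturbs the cranial sutures. Osr1 and Osr2 are odd-skipped zinc-finger proteins, and Osr2 limits the tooth-forming field of the jaw by opposing the Msx1 and Bmp4 loop. Tbx3 and Tbx18 are T-box proteins, the first a repressor needed in the limb and mammary gland, the second a marker of the sinus node, the ureter mesenchyme and mural cells of vessels. Six2 is a homeodomain protein best known for holding nephron progenitors in an undifferentiated state and is also made in facial mesenchyme.

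Before the genes were compared, the libraries were checked. Scaled totals were close, from 69361760 to 71228342, but the number of genes at an FPKM of at least 1 ran from 9850 in cHet_1 to 12360 in cHet_0. Ptch1 itself was not low in the cKO: its scaled counts were 12867 and 5438 in cHet against 22420 and 23341 in cKO. A gene-level count includes reads outside a deleted stretch, so this value does not check the deletion. Hhip, a hedgehog target, was at 62357 and 60651 in cHet against 175453 and 160516 in cKO, and Gli1, another target, also lay higher in both cKO libraries (6388 and 6955 against 4132 and 3350). Mesenchymal markers held 11.1% and 11.9% of the scaled total in cHet and 7.99% and 7.69% in cKO; 7 of 8 had lower fitted values in cKO and 5 lay wholly lower (14.2% of all genes), with a median log2 fold change of -0.55. The median was -3.06 over 4 odontoblast and papilla markers and 2.90 over 7 Schwann cell and neuron markers. Over the endothelial, leukocyte and erythrocyte markers tested, the medians were 3.34 (6 genes), 2.76 (5 genes) and 2.24 (4 genes). The part of these shifts in the results below was not tested. Pthlh was present in all libraries (8613 to 15879), and its groups overlapped. It is 1 of 8 dental follicle and ligament markers, all tested, of which 0 passed. For 7 of the 8 the fitted value fell in cKO, and the list had a median of -0.59 in log2 units. Postn and Tnn lay wholly lower (14.2% of all genes), and 0 lay wholly higher. Tnn was at 10118 and 24448 in cHet against 2676 and 3549 in cKO. The part of this fall in the results below was not tested either. Markers of dental epithelium, led by Amelx and Ambn, held 0.99% and 2.21% of the total in cHet against 1.43% and 4.01% in cKO. Amelx and Ambn both overlapped between the groups. Of the 14 markers in this list, 9 had lower fitted values in cKO, and the median log2 fold change was -0.39. Of these markers 3 lay wholly lower (14.2% of all genes) and 0 wholly higher. Skeletal muscle markers summed to at most 130.4 scaled counts in a library.

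Reference sequence from RefSeq (GRCm38.p6) was matched for 6 of the 9 genes. The 250 bases before the start site are shown for the genes whose 2 groups did not overlap and for which a window was found, since these are the genes on which the comparison turns. An E-box, written CANNTG and the same on both strands, is in capitals. The windows are Tbx18, chr9:87731261-87731510 on the minus strand, Twist1, chr12:33957421-33957670 on the plus strand, and Six2, chr17:85688255-85688504 on the minus strand. The RefSeq start of Six2 lies just inside its GENCODE gene.
Tbx18: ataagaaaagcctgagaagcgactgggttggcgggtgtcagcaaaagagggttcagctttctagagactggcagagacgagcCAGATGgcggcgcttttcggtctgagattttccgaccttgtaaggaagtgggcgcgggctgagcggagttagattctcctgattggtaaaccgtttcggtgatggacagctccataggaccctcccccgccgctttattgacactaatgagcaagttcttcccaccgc
Twist1: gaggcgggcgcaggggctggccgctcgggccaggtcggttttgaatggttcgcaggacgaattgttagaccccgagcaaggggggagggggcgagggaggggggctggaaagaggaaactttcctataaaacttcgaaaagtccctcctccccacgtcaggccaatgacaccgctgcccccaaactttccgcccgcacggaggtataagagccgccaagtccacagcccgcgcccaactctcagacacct
Six2: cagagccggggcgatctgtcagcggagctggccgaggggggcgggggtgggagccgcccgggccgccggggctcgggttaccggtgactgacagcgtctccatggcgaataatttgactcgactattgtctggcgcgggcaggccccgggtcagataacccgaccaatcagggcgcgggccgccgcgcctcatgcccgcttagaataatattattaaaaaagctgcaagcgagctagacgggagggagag
The Tbx18 window held 1 E-box, which begins 168 bases before the start site, and the other 5 windows, including those of Twist1 and Six2, held 0. Of all 32851 windows of this length, 66.2% held at least 1 E-box. The GLI consensus GACCACCCA, searched on both strands, was in 0 of the 6 windows and in 0.225% of all windows. GC content was 54.0% for Tbx18, 62.4% for Twist1 and 64.8% for Six2, against a median of 52.4% over all windows.

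Because the families hold close paralogs, the transcripts were also compared with each other. The longest run of bases shared by each pair within their coding sequences is given here, since it sets how far reads could be assigned to the wrong paralog.
Prrx1 and Prrx2: tcaacatggccaacagcat
Twist1 and Twist2: ctgcgcaagatcatccccacgct
Osr1 and Osr2: tacacctgtgacatctgccacaa
These runs are 19, 23 and 23 bases long, and Tbx3 and Tbx18 shared at most 17. None of the 4 pairs shared any window of 50 bases, so an exact read of that length would match 1 gene of a pair at most.

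Levels were first compared per length, as FPKM. Prrx2 had the highest level in all 4 libraries, with values of 182.2 and 271 in cHet against 218.6 and 237.6 in cKO. Twist1, Osr2 and Six2 followed, with medians over the libraries of 131.7, 122.4 and 119.8, and their order changed from library to library. These 3 genes did not differ beyond their spread, and their ranges, which together ran from 63.05 to 174.8, overlapped. Twist2, Prrx1 and Tbx3 formed a lower group with medians of 41.34, 28.68 and 20.68 and overlapping ranges. Osr1, at 0.6969 to 6.384, was eighth and Tbx18, at 0.01061 to 2.021, was ninth in every library.

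The 2 deposited units did not give the same picture of every gene. If both tables used 1 length per gene, the FPKM value per 1000 scaled counts should differ between libraries only by a factor shared by all genes. For Prrx1 it was 3.49 in cHet_0 and 3.33 in cKO_0 but 0.955 in cHet_1 and 1.2 in cKO_1, a 3.18-fold split between the libraries numbered 0 and those numbered 1. The split was 2.63-fold for Tbx18, 1.96-fold for Tbx3 and 1.46-fold for Twist1. For Twist2, Osr1, Six2 and Osr2 it lay between 0.882-fold and 1.08-fold. Prrx2 went the other way, at 14.9 and 15.7 in the libraries numbered 0 and 23.3 in both of those numbered 1. Among the 8144 genes that averaged at least 1000 scaled counts and had a transcript length, the median split was 1.1-fold for transcripts of up to 1000 bases and 2.15-fold for those over 6000 bases. The split and the length had a Spearman rho of 0.33 across these genes, which share the 4 libraries. Over 8961 genes at that level, with or without a length, the median split was 0.76 in log2 units. Prrx1, Tbx18 and Tbx3, at 1.67, 1.39 and 0.97, lay above this median, and the other genes described here lay below it. The longest coding transcript is 6527 bases for Prrx1, 4982 for Tbx3 and 4679 for Tbx18, and 1441 for Prrx2. What the numbers 0 and 1 stand for is not given, and their part in the levels was not tested. Scaled counts, in which the genotypes are compared below, have no length term stated in the sources used here.

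**Figure D1:**
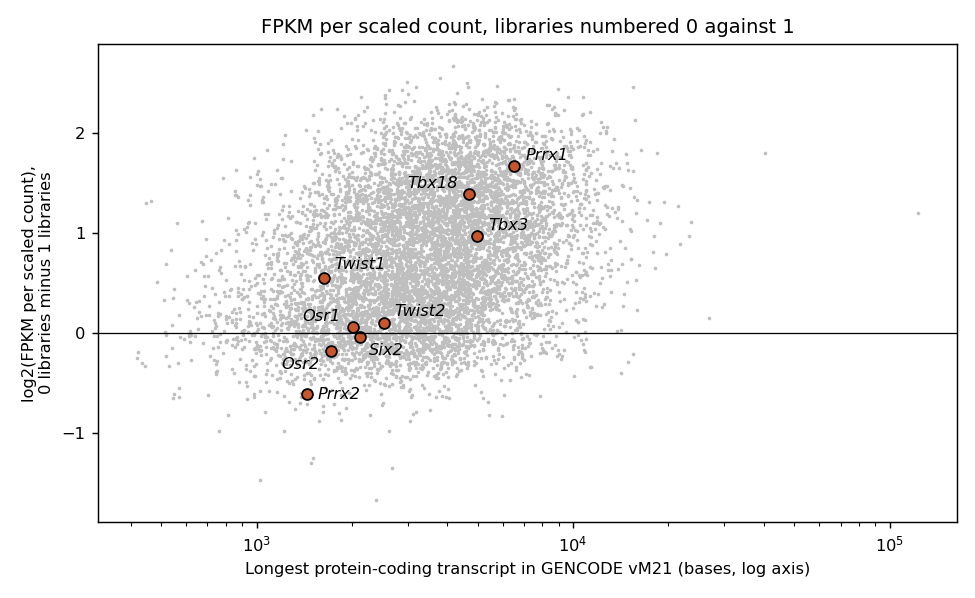
Each point is a gene, with the length of its longest protein-coding transcript on the x axis (bases, log axis) and, on the y axis, the log2 of its FPKM per scaled count in the libraries numbered 0 minus that in the libraries numbered 1. The labelled genes are the 9 described here: Prrx1 is highest at 1.67 and Prrx2 lowest at -0.61.

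The comparison of cKO with cHet asks what complete rather than partial loss of Ptch1 does to these genes. None of the 9 passed the test: 0 had a Benjamini-Hochberg adjusted p under 0.05 in limma, as did 0 of all 14297 genes tested (0%), and 0 of the 9 had an unadjusted p under 0.05, against 433 of all genes (3.03%). Fitted values were higher in cKO for 7 of the 9, against 56.3% of all genes. The groups did not overlap, with both cKO libraries above both cHet libraries, for 4 genes (Twist1, Osr2, Tbx18 and Six2), against 18% of all genes. None lay wholly lower, against 14.2%. The median log2 fold change was 0.47 over the 9 genes and 0.12 over all genes, and the median standard error (SE) was 0.31 and 0.74. Without cHet_1 the median of the 9 was 0.04, and without cHet_0 it was 0.88. cHet_1 held the lowest of the 4 values for 6 of the 9 genes, against 44.5% of all genes, and cKO_0 the highest for 6, against 25.4%. Fewer cells of a type and less RNA per cell cannot be told apart in such sorted bulk samples.

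**Figure D2:**
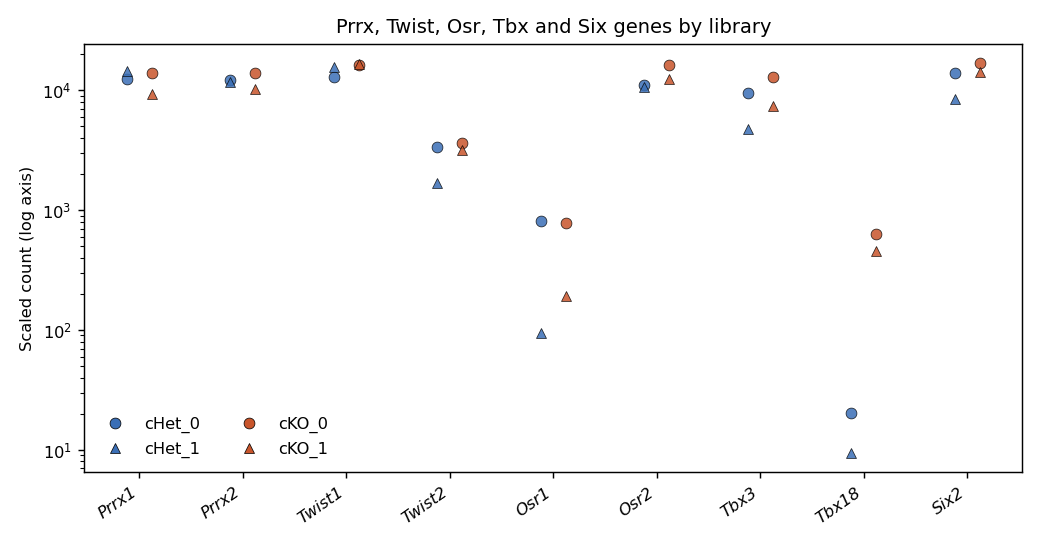
Scaled counts of the 9 genes in each library (log axis), with cHet in blue, cKO in orange, circles for libraries numbered 0 and triangles for those numbered 1. Twist1, Osr2, Tbx18 and Six2 have both cKO points above both cHet points, and Tbx18 shows the widest gap.

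Tbx18 had the largest fold change of the 9 genes. Its gene lies at chr9:87702800-87731260 on the minus strand (mm10, GENCODE vM21). Scaled counts were 20.24 and 9.419 in cHet against 634.6 and 458.4 in cKO, a 36.8-fold ratio of the means. Both cHet libraries were near the bottom of the range and both cKO libraries stood far above them, with no overlap. The log2 fold change was 5.0 (SE 2.2), with a 95% interval from -0.07 to 10.07. This SE is drawn toward the spread of other genes of like abundance. Tbx18 itself ranged 2.149-fold within cHet and 1.384-fold within cKO. Tbx18 did not pass the test (limma adjusted p = 0.913), and it was 1 of 56 genes without overlap that had a fold change at least as large. Compared within a number, cKO exceeded cHet by 4.78 log2 units for the libraries numbered 0 and 5.22 for those numbered 1. Leaving out each library in turn gave 4.54 to 5.45. In FPKM the fitted difference depended on the pseudocount: 3.18 on log2(FPKM + 0.1) and 1.09 on log2(FPKM + 1). Both pseudocounts exceed both cHet FPKM values, so these smaller differences do not show a weaker separation in FPKM. An annotated gene, D030062O11Rik, overlaps Tbx18 and was not analysed here, as for genes overlapping Prrx1, Twist2 and Tbx3; with strand not stated, their reads cannot be told apart. In FPKM the gene remained low, at 2.021 and 0.6081 in cKO and 0.06545 and 0.01061 in cHet.

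Since Tbx18 marks mural cells of vessels, the markers of those cells and of endothelium were set beside it. All 6 pericyte and smooth muscle markers were tested, and 0 passed. Their fitted values were higher in cKO for 6 of 6 (56.3% of all genes), but the groups overlapped for each. The median log2 fold change was 0.41, against 0.12 over all genes. Their summed scaled counts were 75234 and 65078 in cHet against 73818 and 91277 in cKO, with 0 of the 6 at 0 in any library. Acta2, the smooth muscle actin, was at 52635 and 49616 in cHet against 52358 and 61932 in cKO. Pdgfrb, counted here with the mesenchymal markers and not among these 6, lay wholly higher in cKO (18% of all genes). It was at 17720 and 17193 in cHet against 24063 and 23555 in cKO (log2 fold change 0.45, SE 0.23, limma adjusted p = 0.913). Among endothelial markers, Pecam1 was at 0 and 5.233 in cHet against 299.5 and 1278 in cKO, and Cdh5 at 40.49 and 69.07 in cHet against 470.8 and 873.7 in cKO. Cldn5, a tight junction gene, was at 0.8097 and 3.14 in cHet against 120.7 and 495.9 in cKO. These 3, of the 6 endothelial markers tested, lay wholly higher in cKO, against 18% of all genes. For Pecam1 and Cldn5 the lack of overlap and its direction were fixed by the filter, which they passed only through cKO. For them, shares of all genes are therefore no basis for comparison. Of the 6 tested, 5 had higher fitted values in cKO (56.3% of all genes) and 1, Kdr, a lower one. Their median log2 fold change was 3.34, with Pecam1 and Cldn5 included, against 0.12 over all genes. Kdr, a VEGF receptor and the endothelial marker with the highest mean FPKM, overlapped at 1900 and 4054 in cHet against 1944 and 3145 in cKO. Tek, Emcn and Vwf overlapped too. The 7 endothelial markers summed to 2259 and 4142 scaled counts in cHet against 2951 and 8959 in cKO, and in cHet_0 and cKO_0 1 of them was at 0. Pecam1, Cdh5 and Cldn5 were higher in cKO_1 than in cKO_0, and Tbx18 was lower. The part of vessel cells in the Tbx18 values was not tested.

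**Figure D3:**
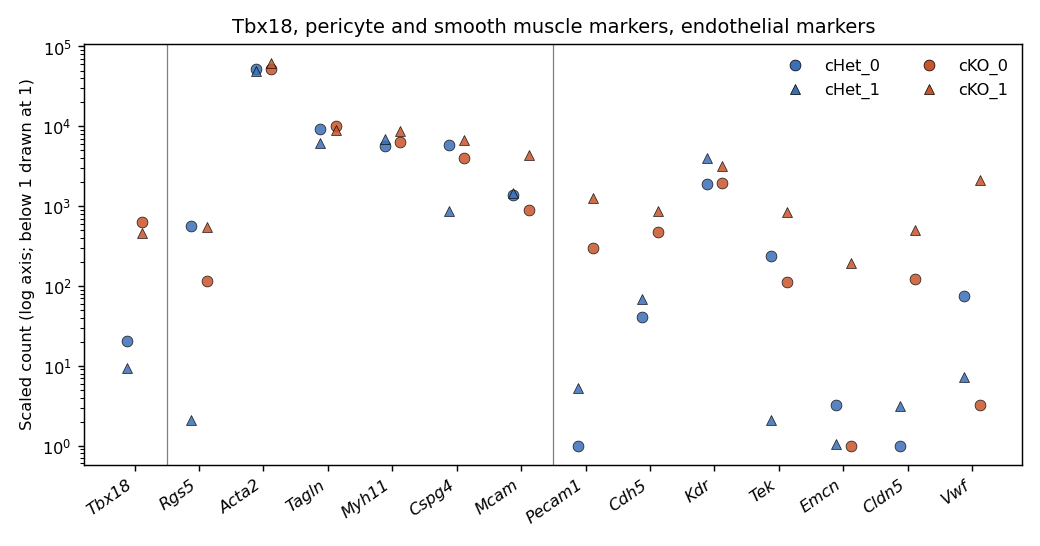
Scaled counts per library (log axis, values below 1 drawn at 1) of Tbx18, of 6 pericyte and smooth muscle markers and of 7 endothelial markers, separated by vertical lines; colours and symbols mark group and library number. Tbx18, Pecam1, Cdh5 and Cldn5 have both cKO points above both cHet points, and the 6 mural markers overlap.

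Tbx3 was far more abundant and less divided. The gene lies at chr5:119670669-119684724 on the plus strand. Scaled counts were 9438 and 4777 in cHet against 12816 and 7386 in cKO, so that the groups overlapped and the libraries numbered 0 were the higher in each. The log2 fold change was 0.53 (SE 0.42, 95% interval -0.43 to 1.5) and did not pass (limma adjusted p = 0.913), with 0.44 and 0.63 within the numbers 0 and 1. Without cHet_1 it was 0.04. Within a library, the log2 ratio of Tbx3 to Tbx18, taken on FPKM with 0.1 added to each value, was 7.47 and 6.08 in cHet against 4.26 and 4.10 in cKO. The cKO minus cHet difference was -2.60, an exact permutation p of 0.333 (adjusted p = 1 over 4 ratios), which is the smallest that 2 against 2 libraries allow. With 1 added in place of 0.1 the difference was -0.54, and in scaled counts it was -4.46.

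The Twist genes differed in how far replicates spread. Twist1 lies at chr12:33957671-33959829 on the plus strand. Its scaled counts were 13012 and 15602 in cHet against 16320 and 16641 in cKO, and the groups did not overlap, although cHet_1 and cKO_0 were close. The log2 fold change was 0.21 (SE 0.25, interval -0.36 to 0.78), and limma gave an adjusted p of 0.923. In FPKM, and after median-of-ratios rescaling of the scaled counts, the groups of Twist1 overlapped. Twist2, at chr1:91801461-91848028 on the plus strand, was at 3364 and 1675 in cHet against 3644 and 3173 in cKO. The low value of cHet_1 set it apart from the other 3 libraries. Its log2 fold change was 0.52 (SE 0.51, interval -0.65 to 1.68, limma adjusted p = 0.915), and without cHet_1 it was 0.02. Twist1 exceeded Twist2 in FPKM in every library, 3.16-fold and 5.48-fold in cHet against 3.66-fold and 3.22-fold in cKO. The groups overlapped in this ratio (difference of -0.28 in log2, exact permutation p = 1, adjusted p = 1). With 2 against 2 libraries this test cannot give a p under 0.333.

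The groups of both Prrx genes overlapped. Prrx2 (chr2:30834972-30881251, plus strand) was at 12204 and 11633 in cHet against 13935 and 10188 in cKO, so that cKO_0 was the highest and cKO_1 the lowest of the 4. Its log2 fold change was -0.00 (SE 0.27), and the 95% interval of -0.63 to 0.63 covers differences up to those bounds in either direction (limma adjusted p = 1). Prrx1 (chr1:163245119-163313710, minus strand) was at 12456 and 14597 in cHet against 14005 and 9282 in cKO. The cKO_1 value was the lowest (log2 fold change -0.24, SE 0.29, interval -0.92 to 0.43, limma adjusted p = 0.926). Within the numbers 0 and 1 the 2 comparisons had opposite signs for Prrx1 (0.17 and -0.65) and for Prrx2 (0.19 and -0.19). In scaled counts the genes were nearly level within each library, with log2 ratios of Prrx1 to Prrx2 from -0.13 to 0.33. In FPKM the same ratio was -2.07 and -2.23 in the libraries numbered 0 and -4.27 and -4.40 in those numbered 1. The group difference in this ratio was -0.14 (exact permutation p = 0.667, adjusted p = 1).

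Of the odd-skipped genes, Osr2 (chr15:35296098-35303305, plus strand) did not overlap between the groups. Its scaled counts were 11156 and 10689 in cHet, a 1.044-fold range, and 16220 and 12434 in cKO. The log2 fold change was 0.38 (SE 0.26, interval -0.23 to 0.99), which did not pass (limma adjusted p = 0.913), and it was 0.54 and 0.22 within the numbers 0 and 1. The FPKM values also did not overlap, at 102.1 and 110.9 in cHet against 154 and 134 in cKO. Osr1 (chr12:9570116-9581500, plus strand) instead followed the library number, at 811.3 in cHet_0 and 774.6 in cKO_0 but 94.19 in cHet_1 and 192.9 in cKO_1. Libraries of the same genotype differed 8.614-fold in cHet against 4.016-fold in cKO. The log2 fold change of 0.47 therefore had an SE of 1.80 and an interval of -3.68 to 4.63 (limma adjusted p = 0.988), and at this spread no difference between the genotypes was detectable. An overlapping gene, 1700022H16Rik, was listed at 0 in all 4 libraries. The Osr1 to Osr2 ratio in FPKM differed by 0.07 log2 units between the groups (exact permutation p = 1, adjusted p = 1).

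Six2 (chr17:85684277-85688274, minus strand) was at 14012 and 8394 in cHet against 16768 and 14306 in cKO. The groups did not overlap, but cHet_0 and cKO_1 were nearly level while cHet_1 stood well below. The log2 fold change was 0.51 (SE 0.31, interval -0.20 to 1.23) and did not pass (limma adjusted p = 0.913). Without cHet_1 it was 0.14. FPKM values likewise did not overlap, at 109.6 and 63.05 in cHet against 137.5 and 129.9 in cKO.

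**Figure D4:**
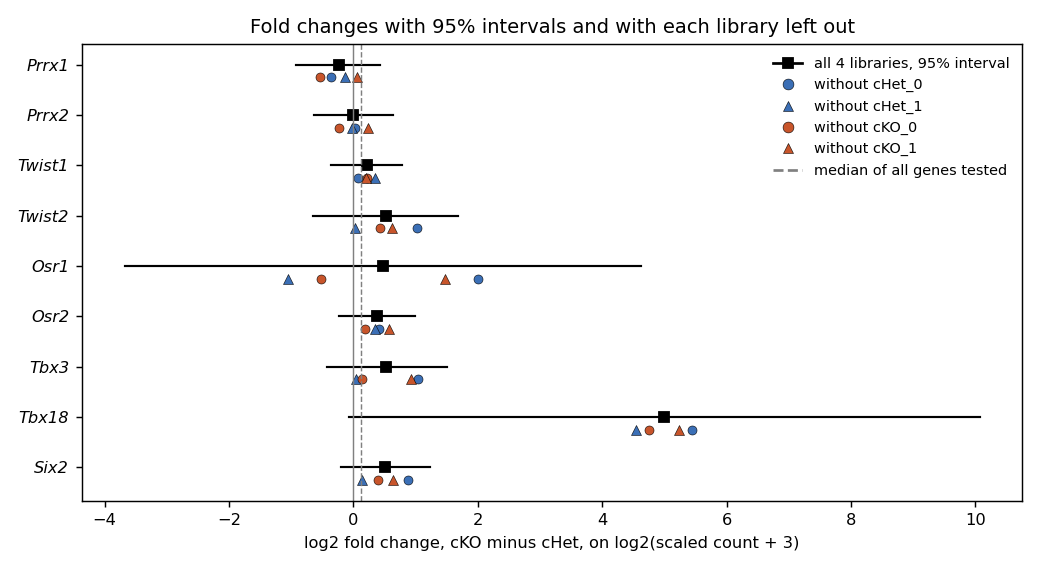
Log2 fold change of each gene, cKO minus cHet, from limma on log2(scaled count + 3): black squares with 95% intervals use all 4 libraries, coloured symbols leave 1 library out, and the dashed line is the median of all genes tested. All 9 intervals include 0; that of Tbx18 reaches from -0.07 to 10.07.

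Genes that act with these families were then examined. Of 7 genes in the Osr2 and Msx1 network of tooth mesenchyme, 7 were tested and 0 passed after adjustment. All 7 had higher fitted values in cKO (56.3% of all genes), 3 lay wholly higher (18% of all genes), and the median log2 fold change was 0.53, against 0.12 over all genes. Sostdc1, a secreted antagonist of BMP and WNT signalling, was at 26752 and 17466 scaled counts in cHet against 73160 and 73530 in cKO, with a log2 fold change of 1.76 (SE 0.27, limma adjusted p = 0.913). Inhba, a subunit of activin, was at 4457 and 2286 in cHet against 10319 and 6710 in cKO, with a log2 fold change of 1.38 (SE 0.43, limma adjusted p = 0.913). These are the 2 of the 7 with an unadjusted p under 0.05, against 3.03% of all genes. Msx1, the homeobox gene that Osr2 opposes, was at 6829 and 2745 in cHet against 6020 and 7844 in cKO, and its groups overlapped. Sfrp2, a secreted WNT modulator, also overlapped (15345 and 9691 against 13381 and 23119).

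**Figure D5:**
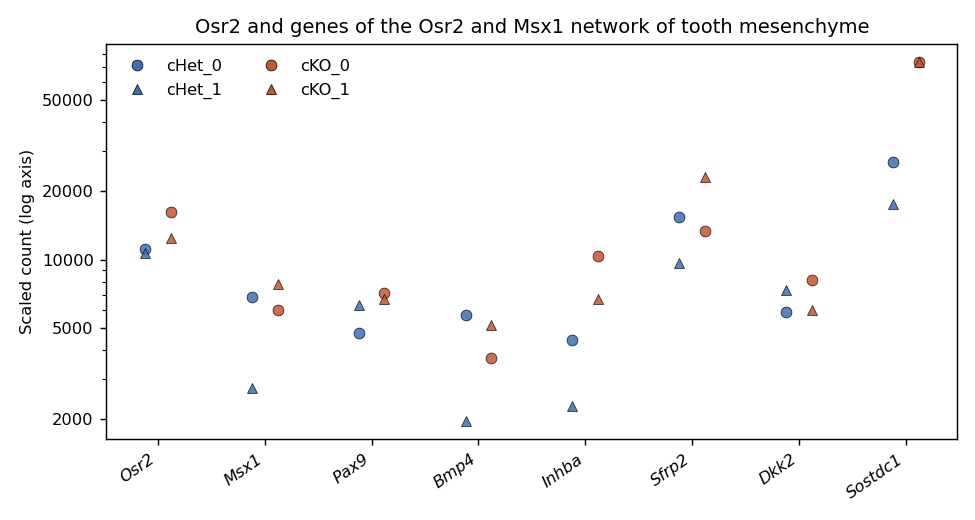
Scaled counts per library (log axis) of Osr2 and 7 genes of its network in tooth mesenchyme; colours and symbols mark group and library number. Osr2, Pax9, Inhba and Sostdc1 have both cKO points above both cHet points, and the other 4 genes overlap.

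In the other related lists 0 genes passed. Over all genes tested, 56.3% had higher fitted values in cKO, 18% lay wholly higher and 14.2% wholly lower. Of 15 other T-box genes, 8 were tested, 3 with higher and 5 with lower fitted values, and the median log2 fold change was -0.08. Mga, a MAX-binding T-box protein, was at 5712 and 11426 in cHet against 3658 and 2575 in cKO (log2 fold change -1.40, SE 0.43, limma adjusted p = 0.913). Tbx22, a palate gene, did not overlap either but was low, at 65.59 and 26.16 in cHet against 2.155 and 1.135 in cKO. It passed the filter only through cHet, which fixed its lack of overlap. Tbx1 and Tbx15 overlapped. Of 11 other genes of the Six2 family and their Eya and Dach cofactors, 9 were tested, 6 higher and 3 lower, with a median of 0.22. Six4 was the gene without overlap there, at 2041 and 1189 in cHet against 691.7 and 972.5 in cKO. Eya3 and Eya4 were nearly missing in cHet_1 (7.326 and 10.46) and lay between 510.6 and 1028 in the other 3 libraries.

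Of 13 bHLH genes that partner or inhibit Twist proteins or are related to them, 10 were tested. Fitted values were higher for 4 (56.3% of all genes) and lower for 6, with a median log2 fold change of -0.04. Those that lay wholly higher numbered 3, against 18% of all genes. For Tcf15, at 0 and 1.046 scaled counts in cHet, this was fixed by the filter, which it passed only through cKO. Id2, an inhibitor of bHLH dimers, was at 14444 and 8447 in cHet against 15512 and 16846 in cKO, without overlap. Tcf3, which encodes the E proteins that pair with Twist, overlapped at 16126 and 9141 against 15706 and 19313. Tcf15 and Msc, both bHLH genes of mesoderm, did not overlap and were low, with at most 118 and 471.9 scaled counts. Of 5 Snai and Zeb genes, which encode repressors of epithelial genes, 4 were tested, 1 higher and 3 lower, with a median of -0.39. Snai1, Snai2, Zeb1 and Zeb2 all overlapped.

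For the 4 genes without overlap, the genes of nearest pattern were found among 8956 genes by the root mean square difference of centred log2 values over the 4 libraries. They were Ctsa, Gps1 and Slc3a2 for Twist1 (0.02 each), Safb2, Vcpip1 and Akap2 for Osr2 (0.02 to 0.03), and Tmed1, Rnpepl1 and Evl for Six2 (0.01 to 0.03). For Tbx18 the nearest were Gm20199, Prg2 and Kcna1, at a distance of 1.21 to 1.38. Only genes that averaged at least 1000 scaled counts were searched, and Tbx18 itself lay below that level. Genes of its own abundance were therefore not searched, and whether any of them follows it closely was not tested.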

How the data were processed

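RNA was isolated with PicoPure columns, amplified with SMART-Seq v4 and made into Nextera XT libraries, per the labels' protocols. TopHat2 (2.0.13), Bowtie2 (2.2.1), Cufflinks, Cuffdiff, HTSeq, DESeq2 and the mm10 build are named without roles, per the submitters' processing notes. The sources used here do not say whether reads were counted by strand.

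The scaled counts, a signal unit, appear to be gene counts after division by a library-wide factor of the authors, whose origin is not stated. Not all are whole counts so divided: in cKO_1 Tbx6 was at 1.135 and Hba-a1 at 0.02503. The deposited FPKM values are the authors' own, relative to length and library size. A further 16 per-sample columns in 4 tables match no label and were not used. Columns count libraries from 0 and titles from 1, so columns were assigned to a group only. As the labels name no separate animals, p-values reflect only how far these libraries spread, which could be technical.

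As no raw counts could be matched to samples, limma (3.58.1, R 4.3.3; eBayes with trend) was fitted to log2(scaled count + 3), with group as the only term, for genes with at least 10 in at least 2 libraries. Fold changes on this scale understate those of low genes. Two-sided p-values were adjusted by Benjamini-Hochberg over all 14297 genes, with a threshold of 0.05. limma's moderated standard errors draw each gene's spread toward that of genes of like abundance. The procedure was run on simulated counts with known changes. Their spread was set in advance and need not match that of these libraries, so the run does not show how many real differences were missed. Paralog ratios used FPKM + 0.1 and exact two-sided permutation tests (SciPy 1.17.1), adjusted over 4 ratios. Alternatives were other pseudocounts, filters, scalings, FPKM, array weights, a replicate block and leaving out each library. Whether the groups overlap under other scalings was added after seeing the data.

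All 9 genes are named. From each related list up to 4 genes with the lowest p are named, from each marker list up to 4 with the highest mean FPKM, and for genes without overlap the 3 nearest in pattern among those that averaged at least 1000 scaled counts. Other genes named in captions complete a list. Pdgfrb and Tnn were named outside these rules. The genes and lists were chosen with earlier results of these data known. Gene positions are from GENCODE vM21.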

Additional observations from a re-analysis of the deposited data

How the results depend on the processing

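With all 4 libraries and on scaled counts, 0 genes passed under every pseudocount, filter, scaling and array weighting tried. With log2(FPKM + 1) 2 genes passed, and with log2(FPKM + 0.1) also 2. With 1 library left out, which leaves a lone sample assumed to vary like the other group, between 0 (without cHet_1) and 1139 (without cHet_0) genes passed. None of the 9 genes passed in any of these settings, and the lowest adjusted p from limma was 0.0605, for Tbx18 without cHet_0. The median log2 fold change of the 9 lay between 0.37 and 0.50 with all libraries and between 0.04 and 0.88 with 1 left out. Median-of-ratios scaling moved the median of all genes from 0.12 to 0.02. The fold change of Tbx18 was 3.18 on log2(FPKM + 0.1) and 1.09 on log2(FPKM + 1). Prrx2 turned to 0.03 with upper-quartile scaling and to 0.04 with either FPKM setting. With 1 library left out its fold change ran from -0.23 to 0.23, that of Prrx1 from -0.54 to 0.05 and that of Osr1 from -1.06 to 2.01. The paralog ratio differences ran from -1.25 to 0.96 for Prrx1 to Prrx2, from -0.67 to 0.12 for Twist1 to Twist2 and from -1.50 to 1.64 for Osr1 to Osr2, and the last was -0.15 with an FPKM pseudocount of 1. Apart from the fewer samples, the cause was not tested. The 4 genes without overlap became 3 with median-of-ratios scaling and with FPKM, where Twist1 overlapped. A filter at a mean scaled count of 1000 left 7 of the 9 genes, without Osr1 and Tbx18. The libraries share only a number: same-numbered libraries had a correlation of deviations of 0.0486 over 14297 genes. With the number as a replicate block, the median of the 9 genes was 0.47 and 0 genes passed. Tbx18 and Osr1 had the lowest scaled counts of the 9 genes, and those of the other 7 were above 1000 in every library. Whether low abundance limited the comparison for Tbx18 and Osr1 was not tested.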
